A study of Mus musculus with 2 samples.

Results

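The interferon response genes examined here are 34 listed genes that interferons are known to induce, or that carry the interferon signal, in mouse cells. They were matched by gene symbol, or by a synonym of the same gene ID, and 32 of them had a feature among the 16504 genes measured. Oas1a and Ifi44 were not matched and are not analysed here. The 32 comprised 22 effectors and sensors of the type I interferon response, 4 transcription factors, and 6 GTPases known chiefly from the response to interferon gamma. Each was read by a single feature. The rule for choosing them used no measured value, although the list was drawn up with earlier results of these arrays known.

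The null group was thymocyte RNA (from developing T cells) of 3 null mice, which lack the gene under study, and the wild-type group was that of 3 wild-type mice. The RNA was pooled within each genotype and amplified. Both pools were hybridised together on each of 2 arrays, with null in Cy5 on one and in Cy3 on the other, so the arrays form 1 technical pair, and the spread between mice was not measured. The labels give no age, strain or sex. They name thymus as the source and thymocytes in the description, and since the file holds ratios and no levels, the cell type could not be checked against its defining markers. With 1 pool per genotype no p-value can be had. Each value is a log2 ratio, null over wild type. Where 2 values of a gene or list are given, null in Cy5 is the first and null in Cy3 the second. Each SD is the technical spread between the 2 arrays (n = 2), and a gene was called lower or higher when both arrays put it 1.5-fold or more to that side. The direction is likely and not stated, being inferred from the dye labels and from signs of negation in the second column, as set out under the processing. In RNA of whole pools, fewer cells of a type and less RNA per cell cannot be told apart.

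Type I interferons (alpha and beta) bind a receptor of Ifnar1 and Ifnar2 chains and, through the kinases Jak1 and Tyk2, assemble a complex that includes Stat2 and Irf9 and binds the interferon stimulated response element in the promoters of antiviral genes. Interferon gamma binds Ifngr1 and Ifngr2 and acts mainly at gamma activated sites, with the transcription factor Irf1 as a further relay. In the thymus, type I interferon is made under resting conditions, and interferon-induced transcripts are known from maturing thymocytes as well as from thymic epithelial and myeloid cells.

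The promoters below show which of these elements lie next to members whose values are given later. They are the 200 bases before the annotated start of each gene, 5' to 3' on the strand of the gene, from RefSeq (GRCm38.p6), and capitals mark every match to the core of the interferon stimulated response element, TTTC followed by any 2 bases and again TTTC, on either strand. Overlapping matches share capitals. Ifit3 lies at chr19:34583329-34583528 (plus strand), Ifit1 at chr19:34640689-34640888 (plus), Isg15 at chr4:156200819-156201018 (minus), Igtp at chr11:58199356-58199555 (plus) and Gbp3 at chr3:142559844-142560043 (plus). Ifit3 was called lower, Ifit1 lies near it on the chromosome, Isg15 went opposite ways on the arrays, and Igtp and Gbp3 were the lowest and the highest of the GTPases.
Ifit3: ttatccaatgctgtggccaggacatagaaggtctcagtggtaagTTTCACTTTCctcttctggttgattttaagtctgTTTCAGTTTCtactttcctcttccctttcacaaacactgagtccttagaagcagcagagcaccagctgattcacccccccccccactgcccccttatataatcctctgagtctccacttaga
Ifit1: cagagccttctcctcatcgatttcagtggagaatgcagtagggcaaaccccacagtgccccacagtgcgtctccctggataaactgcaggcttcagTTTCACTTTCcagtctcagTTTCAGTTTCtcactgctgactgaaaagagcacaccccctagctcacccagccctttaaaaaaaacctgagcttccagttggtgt
Isg15: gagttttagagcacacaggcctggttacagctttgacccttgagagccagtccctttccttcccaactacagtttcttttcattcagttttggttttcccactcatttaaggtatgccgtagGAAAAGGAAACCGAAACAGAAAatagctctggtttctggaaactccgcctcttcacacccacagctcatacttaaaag
Igtp: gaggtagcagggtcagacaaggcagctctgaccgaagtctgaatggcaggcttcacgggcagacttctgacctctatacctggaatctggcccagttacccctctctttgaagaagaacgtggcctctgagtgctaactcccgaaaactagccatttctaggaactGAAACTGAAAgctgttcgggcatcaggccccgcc
Gbp3: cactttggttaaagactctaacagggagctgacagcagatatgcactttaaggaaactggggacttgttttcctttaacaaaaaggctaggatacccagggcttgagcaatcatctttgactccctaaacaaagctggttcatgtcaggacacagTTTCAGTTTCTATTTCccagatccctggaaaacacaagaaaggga

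Ifit3 and Ifit1 each held 2 matches on the strand of the gene, starting 156 and 122 bases before the start in Ifit3 and 104 and 85 bases before it in Ifit1. Isg15 held 3 overlapping matches on the opposite strand and Gbp3 2 overlapping ones. Igtp held 1, on the opposite strand, and was the only 1 of these 5 whose 300-base window also held the gamma activated site. Promoter windows of 300 bases (250 before and 50 after the start) were found for 28 of the 34 genes, and 15 of the 28 had a match in at least 1 window. The same core was present for 3.99% of the 27025 genes in the promoter table. For the gamma activated site, TTCNNNGAA, which reads the same on both strands, the counts were 9 of 28 members and 9.55% of all genes. A match describes these letters and not binding. The 14 measured members with a match to the response element had a median of -0.11 and ranged from -0.77 to 0.33, and the 12 without one had a median of -0.11 and ranged from -0.39 to 0.27. With null in Cy5 these medians were -0.33 with a match and -0.10 without, and after the dye exchange -0.13 with and -0.13 without. The range without a match thus lay inside the range with one. Ifi27l2a and Oas2, the lowest members, had no promoter window here and are in neither group.

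Most interferon response genes stood slightly below 0 in the null pool, and 3 passed the size rule. By the 1.5-fold rule, 3 of the 32 measured members were lower, a share of 9.375%, against 1.11% of all genes. None was higher, against 0.412% of all genes. All 3 were type I effectors, namely Ifi27l2a, Oas2 and Ifit3. Of the 32, 18 lay below 0 on both arrays (56.25%, against 25.0% of all genes) and 4 above 0 on both (12.5%, against 25.0%). The other 10 had opposite signs, against 50.0% of all genes, which include those at 0 on an array. The median of the members was -0.13, with -0.22 for null in Cy5 and -0.14 for null in Cy3, and the median of all genes was 0.00093. At a looser log2 threshold of 0.32 on both arrays, 6 members were lower (2.90% of all genes) and none higher (2.29% of all genes), and at 2-fold only Ifi27l2a was lower (0.261% of all genes). The calls depend on the reading of the file, and 0 members passed the rule when the deposited values were taken as log2, or when the second column was taken as not yet turned.

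**Figure D1:**
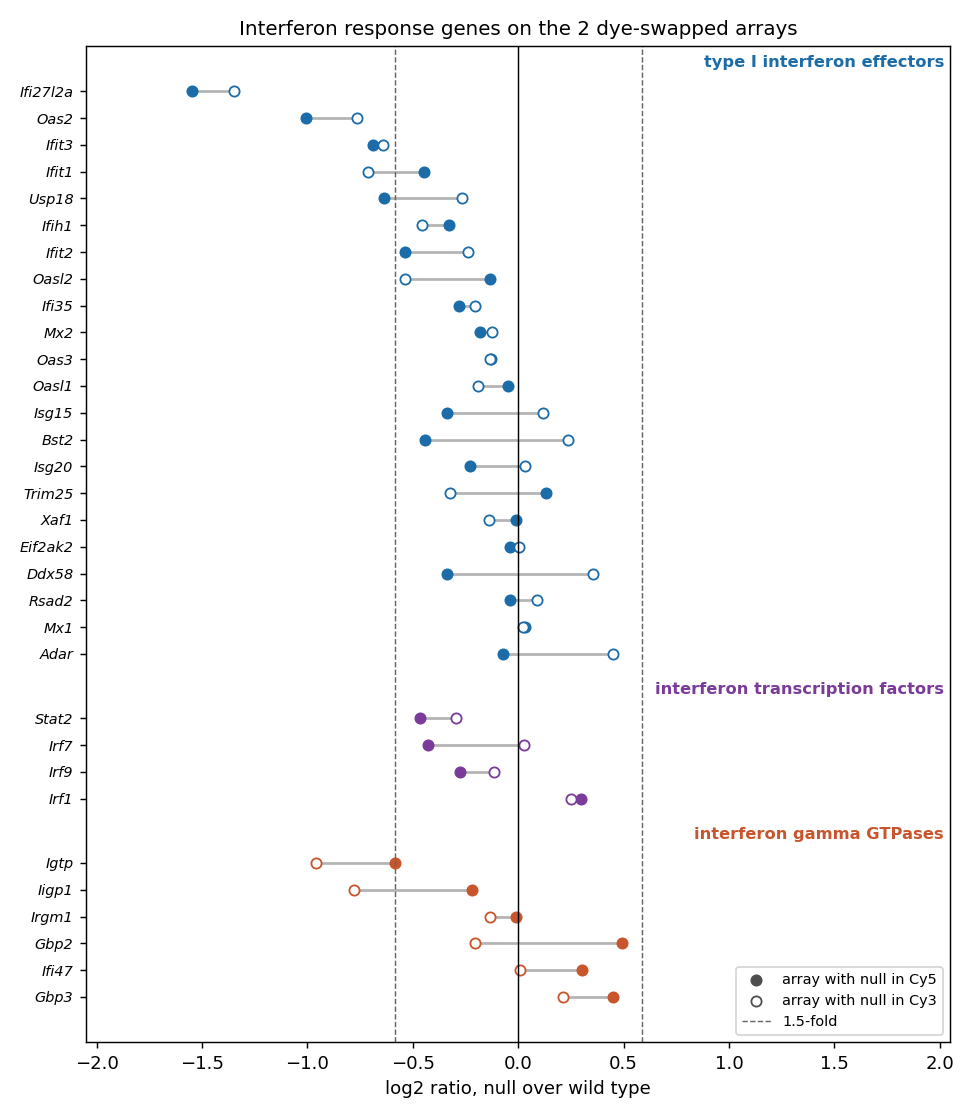
Log2 ratio of null over wild type (horizontal axis) for the 32 measured interferon response genes, 1 gene per line, with filled points for null in Cy5, open points for the array with null in Cy3 and dashed lines at 1.5-fold. Ifi27l2a, Oas2 and Ifit3 have both points left of the lower dashed line, Igtp has 1 point beyond it and the other on it, and the points of 10 genes lie on opposite sides of 0.

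Ifi27l2a, a small interferon-induced membrane protein, was the lowest member, at -1.55 with null in Cy5 and at -1.35 with null in Cy3. Both arrays put it below every other measured member. Its mean of -1.45 (SD 0.14) is a 2.73-fold difference and ranks at position 21 from the lowest of 16504 genes. Size and rank hold for the second column as read here, and with that column taken as not yet turned the value would be -0.0995. Its relative Ifi27l2b, chosen after the values were seen, stood at -0.19 and 0.00033, a mean of -0.09, so the close relative did not pass the size rule.

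The oligoadenylate synthetases sense double-stranded RNA and make the messenger that activates the ribonuclease RNase L. Oas2 was lower, at -1.005 with null in Cy5 and at -0.76 with null in Cy3 (mean -0.88, SD 0.17, 1.85-fold). Its chromosomal neighbour Oas3 stood at only -0.13 and -0.14, values closer to each other than those of most members. Oasl2, a synthetase-like protein, stood at -0.13 and -0.54, and Oasl1, which is known to restrain translation of Irf7 in mice, at -0.05 and -0.19. All 4 of these lay below 0 on both arrays (25.0% of all genes), and 1 of them was lower by the rule (1.11% of all genes). The 7 measured copies of Oas1 other than Oas1a were gathered after the values were seen. In the mean of the arrays they ranged from -0.36 for Oas1f to 0.23 for Oas1h. None of the 7 passed the rule (1.11% of all genes lower, 0.412% higher). These copies resemble each other in sequence, so their features may bind transcripts of one another.

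Of the Ifit proteins, Ifit1 is known to bind viral RNA ends and block translation of that RNA. The 3 Ifit genes lie on chromosome 19, and all 3 lay below 0 on both arrays (25.0% of all genes). Ifit3 was lower, at -0.69 with null in Cy5 and at -0.64 with null in Cy3 (mean -0.67, SD 0.03, 1.59-fold), and it was the called member nearest to the threshold. Ifit1 stood at -0.45 and -0.71, past 1.5-fold on the second array alone. Ifit2 stood at -0.54 and -0.24, past it on neither. The closely similar Ifit3b was not analysed here, and a feature for Ifit3 may bind its transcript too.

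Of the other antiviral effectors, none passed the rule (1.11% of all genes lower, 0.412% higher). Usp18, the protease that removes Isg15 from proteins and dampens signalling at the type I receptor, stood at -0.64 and -0.27. Isg15, the ubiquitin-like modifier itself, stood at -0.34 and 0.12. The GTPase Mx2 stood at -0.18 and -0.12, and Mx1 at 0.03 and 0.02. Of the 4 values of Mx2 and Mx1, that of Mx2 with null in Cy5 was the largest in size, a 1.13-fold difference. Ifi35 stood at -0.28 and -0.20. Bst2 (tetherin), which holds budding virus at the cell surface, stood at -0.44 and 0.24, and Isg20, an exonuclease, at -0.23 and 0.03. Rsad2 (viperin), which makes a chain-terminating nucleotide, stood at -0.04 and 0.09. Eif2ak2 (PKR), the kinase that stops translation on double-stranded RNA, stood at -0.04 and 0.01. Such values near 0 cannot be told from weak signal, because the file holds no intensities.

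The remaining effectors act on RNA sensing and cell death. Ifih1 (MDA5), a sensor of long double-stranded RNA, stood at -0.33 and -0.46, below 0 on both arrays. Ddx58 (RIG-I), the sensor of short RNA with a triphosphate end, stood at -0.34 and 0.36, values of nearly equal size and opposite sign. Trim25, a ubiquitin ligase known as an activator of RIG-I, stood at 0.13 and -0.32. Adar, which edits adenosine in double-stranded RNA, was the highest effector in the mean, 0.19 (SD 0.37), but stood at -0.07 with null in Cy5 and at 0.45 with null in Cy3. Xaf1, a proapoptotic interferon target, stood at -0.01 and -0.14. Of the 22 effectors, 13 lay below 0 on both arrays, 1 (Mx1) above, and 8 had opposite signs. The shares of all genes were 25.0%, 25.0% and 50.0%. No member went 1.5-fold or more opposite ways. Among the 10 members with opposite signs, the difference of the arrays divided by 2 reached at most 0.35 in size. Of these members, 8 had the smaller value with null in Cy5. Among all genes with opposite signs, 4137 had the smaller value with null in Cy5 and 4120 the larger.

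The transcription factors stood on both sides of 0. Stat2, the subunit specific to the type I complex, stood at -0.46 with null in Cy5 and at -0.29 with null in Cy3. Its partner Irf9 stood at -0.28 and -0.12. Irf7, which amplifies type I interferon production, stood at -0.43 and 0.03. Irf1, which is induced by interferon gamma and by other signals, was the only factor above 0 on both arrays, at 0.30 and 0.25 (mean 0.27, SD 0.03). None of the 4 passed the rule (1.11% of all genes lower, 0.412% higher). Their median was -0.20, or -0.35 with null in Cy5 and -0.04 after the dye exchange.

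The GTPases of the interferon gamma response, known for defence against intracellular pathogens, did not share a direction. Igtp (Irgm3) stood at -0.58 with null in Cy5 and at -0.96 with null in Cy3 (mean -0.77, SD 0.27). It missed the rule by the smallest margin, a 1.499-fold difference on the first array, and was lower in the mean than Ifit3, which passed. Iigp1 (Irga6) stood at -0.22 and -0.78. Irgm1, a regulatory member of the same family, stood at -0.01 and -0.13, and Irgm2, the neighbour of Igtp on chromosome 11 and named after the values were seen, at -0.04 and -0.13. Ifi47 (IRG-47) stood at 0.30 and 0.01. Among the guanylate-binding proteins, Gbp3 stood at 0.45 and 0.21, above 0 on both arrays, and Gbp2 at 0.49 and -0.20. Thus 3 of the 6 GTPases lay below 0 on both arrays (25.0% of all genes), 2 above (25.0%), and 1 on opposite sides (50.0%). None passed the rule (1.11% of all genes lower, 0.412% higher).

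Type I effectors and interferon gamma GTPases were not separated by these arrays. The effectors had a median of -0.13 and the GTPases one of 0.04, a difference of -0.16 in the mean of the arrays. With null in Cy5, the effector median was -0.25 and the GTPase median 0.15, a difference of -0.40. With null in Cy3, the medians were -0.17 and -0.17, a difference of 0.0028. The gap thus rested on 1 array. The 6 GTPases, from -0.77 to 0.33, lay within the range of the 22 effectors, from -1.45 to 0.19, except for Gbp3. The rule was passed by 3 of the 22 effectors and 0 of the 6 GTPases (1.11% of all genes lower, 0.412% higher). With 6 genes, a count of 0 does not set the GTPases apart from these shares.

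**Figure D2:**
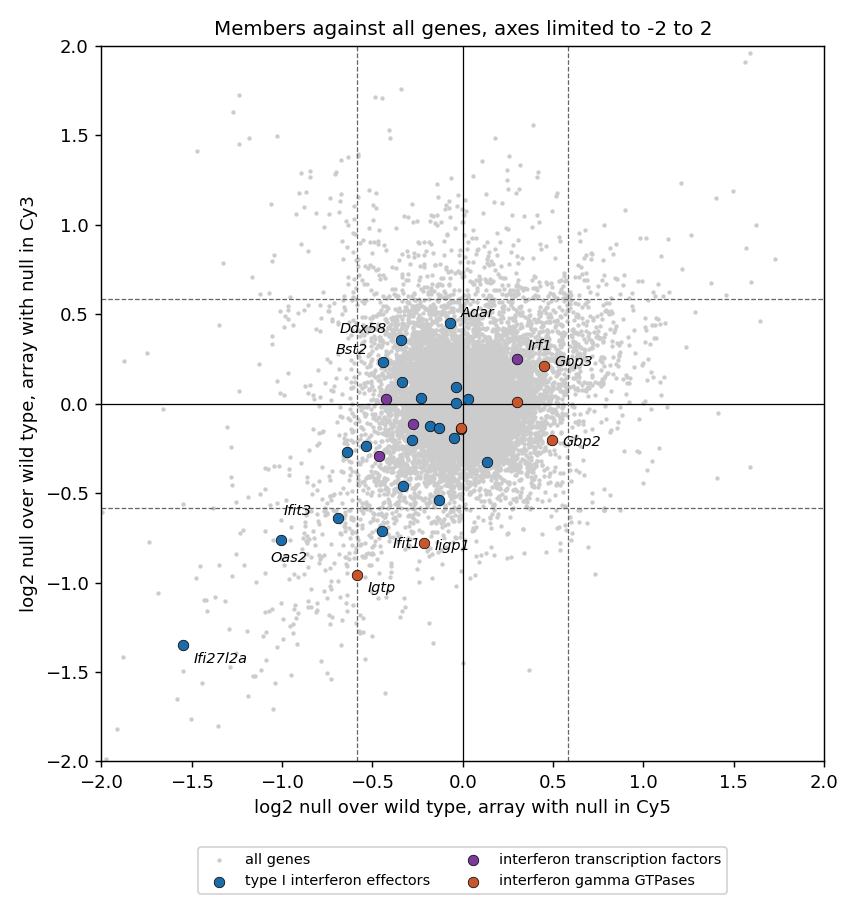
Log2 ratio of null over wild type with null in Cy5 (horizontal axis) against that with null in Cy3 (vertical axis), with grey points for all genes, coloured points for the 3 groups of members and dashed lines at 1.5-fold; 16 genes outside the axis limits of -2 and 2 are not drawn. Ifi27l2a, Oas2 and Ifit3 lie in the lower left corner beyond both dashed lines, and no member lies in the upper right corner.

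Across the 32 members, which all share the same arrays and are no replicates, Pearson's r between the arrays was 0.637 and Spearman's rho was 0.455. Without Ifi27l2a, Pearson's r was 0.481 over 31 members. Across all 16504 genes it was 0.238, and across all 22393 features, which include those without a gene symbol, it was -0.447. Averaged over the arrays, the SD was 0.37 among members, against 0.22 among all genes, and their difference divided by 2, a measure of dye effect and noise, had 0.17 over members, against 0.18. With Ifi27l2a included, the members were thus spread more widely than all genes in the mean and about as widely in the dye and noise term. Ifi27l2a, at a mean of -1.45, adds to the first of these SDs, which was not computed without it.

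Upstream of the members, none of the 9 measured interferon genes was called, against 1.11% of all genes lower and 0.412% higher. Of 21 listed ligands 9 were measured, and they ranged from -0.02 to 0.20 in the mean of the arrays, with a median of 0.08. Ifnb1 stood at 0.18 and 0.05, and Ifng at -0.22 and 0.37. Several of the Ifna genes are near-identical copies, so their features may not tell them apart. Of 17 measured receptor and signalling genes, Usp18 among them, 2 were lower (1.11% of all genes) and none higher (0.412%). Their median was -0.18. Ifngr1, the ligand-binding chain of the interferon gamma receptor, was lower, at -0.78 with null in Cy5 and at -1.44 with null in Cy3 (mean -1.11, SD 0.46). Jak1, a kinase of both receptors, was lower as well, at -0.66 and -0.68 (mean -0.67, SD 0.02). The partner chain Ifngr2 stood at 0.01 and -0.01. The type I receptor chains did not pass the rule, with Ifnar1 at -0.40 and 0.24 and Ifnar2 at 0.16 and 0.55. Socs1, a feedback inhibitor of Jak kinases, stood at -0.61 and -0.49. Traf3 was not analysed here. Of 15 measured nucleic acid sensors and adaptors, which include Ifih1 and Ddx58, none was called (1.11% of all genes lower, 0.412% higher). Their median was -0.10. On both arrays 8 lay below 0 (25.0% of all genes) and none above 0 (25.0%), and 7 had opposite signs (50.0%).

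Further interferon-induced genes outside the list also had medians below 0. Of 47 other type I induced genes, 5 were lower (1.11% of all genes) and none was higher (0.412% of all genes). Their median was -0.21 (arrays -0.23 and -0.20). On both arrays 29 lay below 0 and 5 above 0, and 13 had opposite signs. For these counts and those of the next list, the shares of all genes were 25.0%, 25.0% and 50.0%. Cxcl10, a chemokine for Cxcr3, was the lowest, at -1.05 with null in Cy5 and at -1.71 with null in Cy3. Trim30a stood at -0.73 and -1.54, Phf11a at -0.77 and -0.84, and Ms4a4b, a membrane protein of T cells, at -0.87 and -0.68. Rtp4 completed the 5, at -0.65 and -0.64. Of 29 other interferon gamma induced genes, 1 was lower and none was higher, against the same shares of all genes. Their median was -0.15 in the mean of the arrays (-0.09 and -0.12 on each). On both arrays 15 lay below 0 and 2 above 0, and 12 had opposite signs. Psmb10, at -0.60 and 1.10, and Tap2, at -0.64 and 1.02, went 1.5-fold or more opposite ways. The called gene was Gbp4, at -1.23 and -0.72, a guanylate-binding protein like Gbp2 and Gbp3, which stood above 0 in the mean.

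Markers of other thymic cell states and cell types are given beside the interferon genes. For each list, the shares of all genes were 1.11% lower, 0.412% higher and 25.0% below 0 on both arrays. Of 17 measured markers of mature single positive thymocytes, 10 were lower and none higher, 16 lay below 0 on both arrays, and the median was -0.82 (arrays -0.78 and -0.78). Ms4a4b and Ifngr1 are on this list as well as on the interferon lists. Without them, 8 of 15 were lower and the median was -0.82. Of 20 macrophage and dendritic cell markers, 4 were lower and the median was -0.12 (arrays -0.13 and -0.18). Of 11 plasmacytoid dendritic cell markers, which include Bst2 and Irf8, 1 was lower, Ccr9, which thymocytes also express, and the median was -0.21. Of 11 B cell markers 3 were lower (median -0.18), and of 16 thymic epithelium markers 3 were lower (median -0.10, arrays -0.04 and -0.20). Of 13 NK and cytotoxic cell markers 1 was lower and 1 higher (median -0.16). Of 13 neutrophil markers 4 were higher and none lower (median 0.24). On both arrays, 12 of the 20 macrophage and dendritic cell markers lay below 0. So did 9 of the 11 plasmacytoid dendritic cell markers and 10 of the 11 B cell markers. The counts were 9 of 16 for thymic epithelium, 7 of 13 for NK and cytotoxic cells and 0 of 13 for neutrophils. The part of any of these cell states or types in the values of the interferon response genes was not tested.

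**Figure D3:**
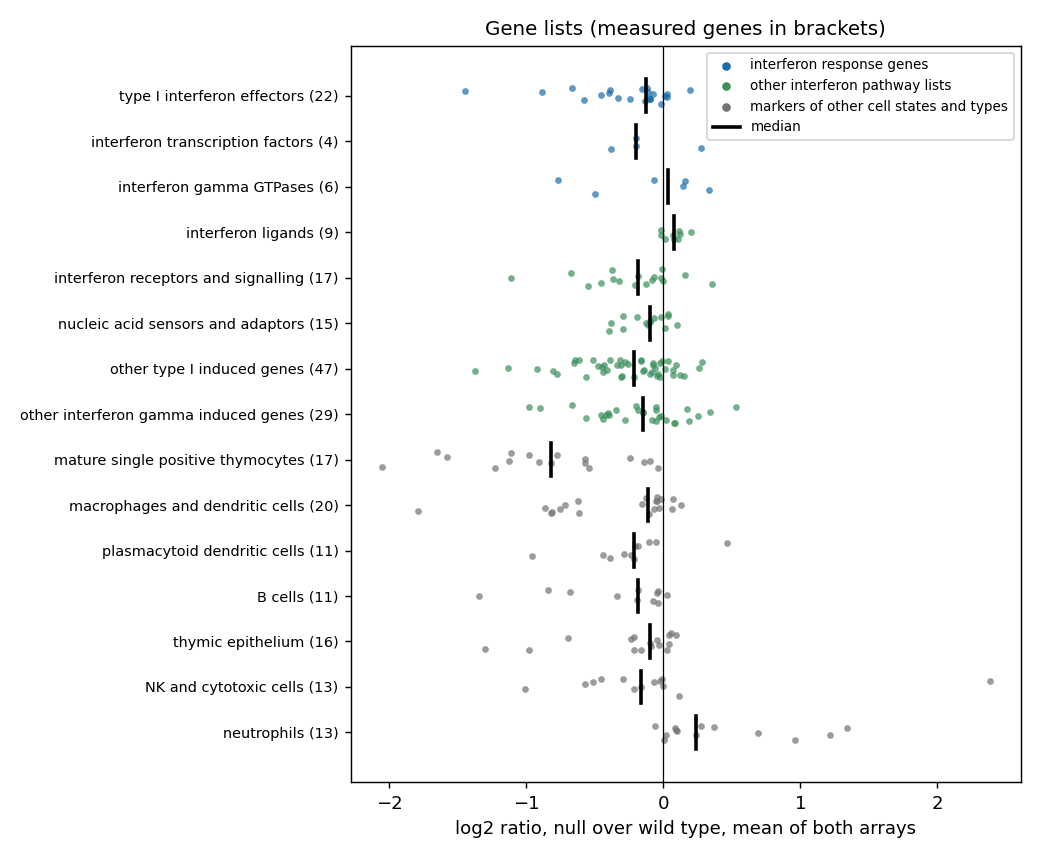
Log2 ratio of null over wild type, as the mean of both arrays (horizontal axis), for each measured gene (points) of the 3 member groups, 5 other interferon pathway lists and 7 marker lists, with black bars at the median of each list. The bars of the interferon lists lie between -0.21 and 0.08, and that of mature single positive thymocytes at -0.82.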

How the data were processed

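The deposited values are log10 ratios of the 2 dyes for 22393 features on each of 2 arrays, made by the authors from amplified, dye-labelled RNA. The submitters' processing notes name Agilent Feature Extraction 7.1, and the series' design text its default settings. The log base is that software's convention, with no statement of it in the labels, and whether the values were centred is unknown. Their medians were -0.00141 (null in Cy5) and 0.00112 (null in Cy3). The first column writes its 80 zeros as 0, the second its 82 as -0, so the second was read as already turned to null over wild type. In 1030 genes with 2 features, r between these was 0.327 for the arrays' mean and 0.0411 for their difference divided by 2. Over all features, 4159 of them without a gene symbol, the arrays correlated with r = -0.447. Direction and scale are thus inferred.

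Values were converted to log2. Of the 18218 features with 1 symbol in the platform annotation, 18175 had their symbol looked up by gene ID in RefSeq (GRCm38.p6). Another 16 features had several symbols and entered no gene. Features of a gene were averaged. No test was possible, and the number of arrays limits the precision. The rule for naming genes asked for array values of members called, members 1.5-fold or more opposite ways, the 2 lowest and 2 highest of each member list and members with several features; values of the other members are given as well. Of the pathway lists it named called genes and the receptor chains Ifnar1, Ifnar2, Ifngr1 and Ifngr2. Further genes (Socs1, Ifnb1, Ifng, Irgm2, Oas1 copies, Ifi27l2b, Psmb10, Tap2) were chosen after their values were seen. Members and lists were chosen with earlier results of these data known. The size rule was tested on simulated data. The targeted gene is not reported here. Alternatives were centring, each array alone, other ways of combining features, other thresholds, a cap on the dye effect, log2 in place of log10, and a second column not yet turned. The tools were numpy 2.4.6 and pandas 2.3.3 under Python 3.11.15, with matplotlib 3.10.9 for plots.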

Additional observations from a re-analysis of the deposited data

How the results depend on the processing

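With 1 pool per genotype and no intensities, neither the spread between mice nor the signal behind a ratio is known. Under each alternative for the count, no member was called higher. The count of 3 lower members became 6 with null in Cy3 alone (2.68% of all genes), 4 with null in Cy5 alone (2.47%), 6 at a log2 threshold of 0.32 and 1 at 2-fold. It was 0 when the deposited values were read as log2, and 0 when both columns were read as raw Cy5 over Cy3, where 8 members and not 18 lay below 0 on both arrays. The median of all members was -0.22 with null in Cy5 alone, -0.0236 for raw columns and -0.0381 for log2. The median of the type I effectors was -0.25, -0.0327 and -0.0381 under the same settings. The values with null in Cy5 do not depend on how the second column is read, while the means of the arrays and the calls do. Centring kept the count of 3, and so did other ways of combining features, since each member has 1. A limit of 0.3 on the difference of the arrays divided by 2 kept 29 members and the count of 3. The difference between effectors and GTPases ran from -0.40 with null in Cy5 to 0.0028 with null in Cy3. No member is named by an older symbol in the annotation, so leaving such members out was not run. No paired analysis was possible because each genotype is a single pool.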
